A study of Rattus norvegicus with 8 samples.

Results

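This set holds 48 rat genes that T cells and natural killer (NK) cells use for antigen recognition, killing and cytokine signalling, among 24446 genes tested on the same arrays. The members were taken as a named list, by the gene name or RefSeq accession of their probes, and fall into 29 T cell genes, 15 cytotoxic genes and 4 cytokine receptor genes. RNA came from kidneys of Dark Agouti rats transplanted into MHC-incompatible Lewis rats whose own kidneys had both been removed. All animals were male and inbred and weighed 120 to 250 g, and each kidney lay at 4°C for 25 min before it was placed in the recipient. Grafts were taken 24 h after surgery, with 2 rats in each of 4 groups and 1 array per rat. In the anti-IL6R grafts the donor was 20 to 50% lighter than the recipient, which received a single intravenous injection of 500 µg of an antibody against the IL-6 receptor directly after surgery. In the prednisolone grafts the weight difference was the same and the recipient received 15 mg/kg of the steroid prednisolone intravenously. The high-difference grafts had that weight difference and no injection is named for them. In the low-difference grafts the donor was 0 to 20% lighter, again with no injection named. No group without transplantation and no graft between rats of the same strain is among these samples.

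T cells see foreign peptides through an antigen receptor that signals through the CD3 chains, helped by the coreceptors CD4 and CD8 and by costimulatory receptors such as CD28. Cytotoxic T cells and NK cells carry granules with perforin, which opens the target's membrane, and granzymes, the proteases that then kill it. In a kidney transplanted across an MHC barrier, these cells come with the recipient's blood and can also be carried over in the donor organ. Whole-kidney RNA mixes them with tubules, vessels and other leukocytes, so fewer cells of a type and less RNA per cell cannot be told apart.

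Signal was read with 1-colour Agilent arrays, and every level below is a probe's processed signal as a percentage of its array's 75th percentile signal. A log2 difference is the difference of 2 groups' mean log2 levels, with the standard error (SE) of a single limma fit of all 8 arrays (n = 2 per group). Where a probe was well above background on neither array of a group, its fold is a lower bound (written as at least so many fold), set against the lowest signal that was well above background there. The adjusted p printed beside such a bound belongs to the fit of the measured values and not to the bound. Between 64.5 and 74.0% of spots were well above background, the scanner software's call that a spot exceeds its surroundings. That share was 71.5 and 74.0% on the anti-IL6R arrays, 70.2 and 64.5% on the prednisolone arrays, 66.5 and 65.3% on the high-difference arrays and 71.7 and 72.1% on the low-difference arrays. The second prednisolone array stood apart from the first for these genes, so the medians and the named differences of the prednisolone comparisons are given with and without each of the 2. Both treated groups lay on 1 slide and both untreated groups on the other, so treatment and slide cannot be told apart. All 8 kidney epithelium and podocyte markers met the filter for testing. With 2 rats per group an exact permutation test cannot go below p = 0.33, so the model across all genes is the test used, and the number of arrays limits the precision.

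Many members were dim. Of the 48, 45 had a probe. Cd27, a costimulatory receptor, Klrc1, an NK receptor chain, and Ptprcap, a partner of the phosphatase CD45, had none under the rule and are not analysed here. The probes that the files name Klrc3 also list an accession of Klrc1 and were not counted, since they could not be assigned to a single gene. Well above background on all 8 arrays were 13 members: Cd3d, Cd6, Cd48, Ctla4, Icos, Zap70, Lat, Sit1, Bcl11b, Prf1, Nkg7, Cst7 and Il2rb. Another 20 met the filter for testing, which asked for both arrays of at least 1 group. That made 33 tested members, namely 21 T cell genes, 11 cytotoxic genes and Il2rb. The signals of Cd247, Cd28, Trat1, Eomes and Il7r, and of the brighter Il2ra probe, were well above background on no array. The filter was met on both arrays by 32 of the 33 in the anti-IL6R group, by 19 in the prednisolone group, by 16 in the high-difference group and by 31 in the low-difference group. A member dim in 1 group passed through a group where it was bright, so counts and medians over the 33 describe the data and are no evidence of a difference, and values for the 13 are set beside them.

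Of the 33 tested members, 32 had a lower mean in high-difference than in low-difference grafts, 31 a higher mean in anti-IL6R than in high-difference grafts and 29 a higher mean in prednisolone than in high-difference grafts, but no gene on the array passed an adjusted p of 0.05 in any of these 3 comparisons. Each array's count of members above their own 8-array mean was 29 and 30 of 33 on the anti-IL6R arrays, 27 and 5 on the prednisolone arrays, 3 and 3 on the high-difference arrays and 27 and 30 on the low-difference arrays. For all genes tested the same share lay between 46.2 and 56.0% on every array. The second prednisolone array was thus low for these genes, while the first was high.

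**Figure D1:**
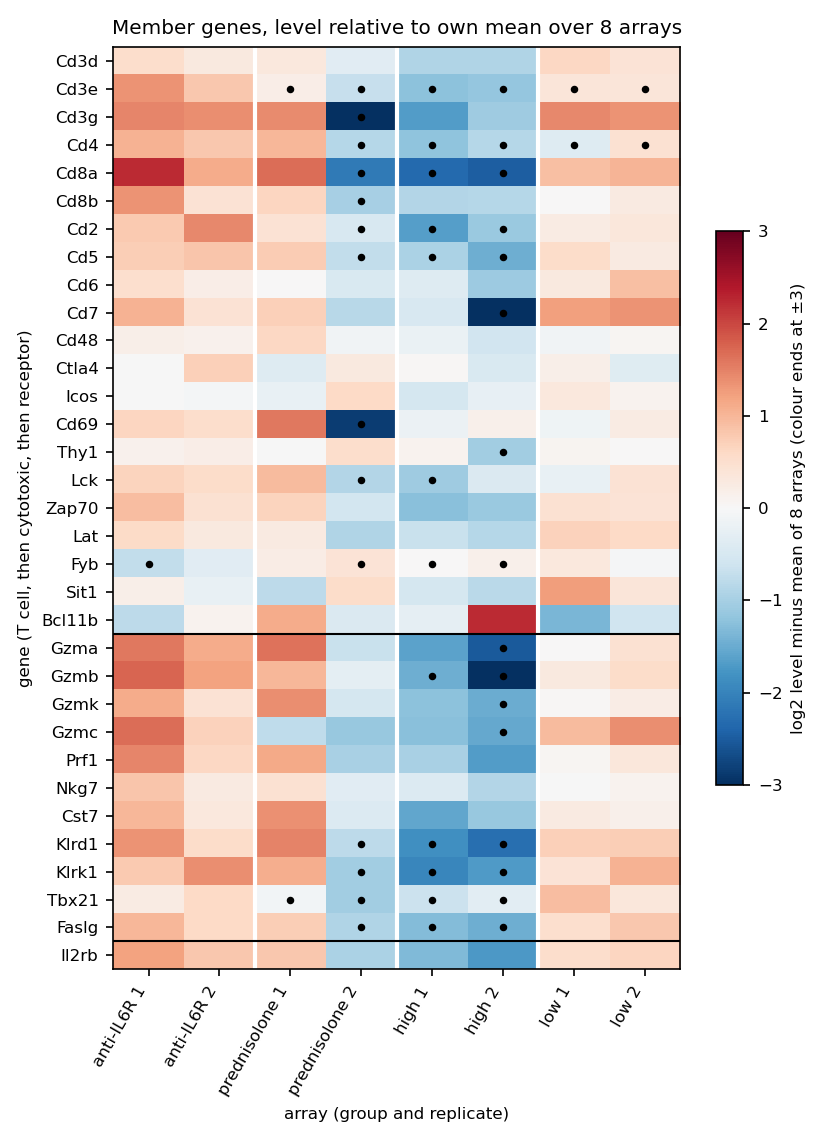
Level of the 33 tested member genes on each of the 8 arrays, as the log2 difference from the gene's own mean over the arrays, with genes in rows and arrays in columns and dots where the probe was not well above background. The high-difference arrays had 3 and 3 of 33 members above their mean and the second prednisolone array 5, against 27 to 30 on the other 5 arrays.

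The CD3 chains are the signalling part of the antigen receptor, and Cd3d and Cd3g were both dimmer on the high-difference arrays than on the anti-IL6R and low-difference arrays. Cd3d read 68.6 and 58.8% in anti-IL6R grafts, 59.3 and 37.7% in prednisolone grafts, 25.5 and 25.6% in high-difference grafts and 73.0 and 63.7% in low-difference grafts. It was well above background on every array, and no anti-IL6R, prednisolone or low-difference array was as low as either high-difference array. Cd3d differed by -1.42 ± 0.26 (log2, SE) between high-difference and low-difference grafts (adjusted p = 0.26), and by 1.31 ± 0.26 between anti-IL6R and high-difference grafts (adjusted p = 0.18). Cd3g read 43.5 and 41.5% in anti-IL6R grafts, 42.1 and 0.771% in prednisolone grafts, 4.89 and 7.44% in high-difference grafts and 42.9 and 39.8% in low-difference grafts. The low value on the second prednisolone array stands alone: its single spot had a mean pixel intensity of 28.1 against a local background of 37, and it was not flagged. Its other 7 arrays were well above background, and the anti-IL6R and low-difference arrays all lay above both high-difference ones. Cd3e was well above background only on the 2 anti-IL6R arrays, at 3.13 and 2.15%, against 0.526 and 0.549% on the high-difference arrays. It was at least 1.12-fold higher in anti-IL6R than in high-difference grafts (adjusted p = 0.14). With a different background correction (normexp, which models background rather than taking the software's processed signal, with an offset of 50) the difference turned to -0.12. That offset, added to every intensity before the log2, by itself shrinks differences of dim signals. Its part in this change of sign was not tested. Between high-difference and low-difference grafts Cd3e was dim on both sides, and no fold is given. Cd247, the zeta chain that carries the signal into the cell, was not well above background anywhere, between 0.347 and 1.56%.

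Cd3g and Cd3d lie side by side on rat chromosome 8 and point away from each other, with start sites 1601 bases apart in RefSeq's annotation of GRCr8. Their promoter windows, 250 bases before to 50 after the start, are shown because the pair shared the low level on the high-difference arrays. They cover chr8:54183869-54184168 (minus strand) for Cd3g and chr8:54185269-54185568 (plus strand) for Cd3d. Capitals mark AGGAAG, the core of sites bound by ETS family factors, or TGTGGT, a RUNX core, on either strand.
Cd3g: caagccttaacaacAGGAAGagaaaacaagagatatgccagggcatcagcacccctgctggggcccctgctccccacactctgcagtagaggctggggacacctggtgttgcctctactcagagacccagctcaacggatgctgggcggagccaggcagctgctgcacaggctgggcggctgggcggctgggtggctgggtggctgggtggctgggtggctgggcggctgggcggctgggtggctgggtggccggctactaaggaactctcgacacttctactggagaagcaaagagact
Cd3d: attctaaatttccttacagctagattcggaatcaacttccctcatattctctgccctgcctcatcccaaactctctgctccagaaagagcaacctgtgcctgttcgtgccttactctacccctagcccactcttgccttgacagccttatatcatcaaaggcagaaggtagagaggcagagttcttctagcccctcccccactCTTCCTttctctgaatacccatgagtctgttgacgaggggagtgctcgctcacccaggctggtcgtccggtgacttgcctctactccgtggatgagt
Each window held 1 AGGAAG match and no TGTGGT match. RefSeq's table gave a promoter for 36 members, of which 22 (61.1%) held AGGAAG and 17 (47.2%) TGTGGT, against 34.5% and 17.3% of all 33469 promoters of that length in the table. Of 4 further motifs searched on both strands, AGGTGT (T-box) was in 8 of the 36 (22.2%, all promoters 13.6%), CAGGTG (E-box) in 11 (30.6%, all 18.8%), AGATAA, bound by GATA factors, in 3 (8.33%, all 11.6%) and GGAAAA (NFAT) in 7 (19.4%, all 24.7%). AGGTGT and CAGGTG can share bases. These are matches of letters and say nothing about binding.

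Both chains of the coreceptor CD8 were dimmer on the high-difference arrays than on the anti-IL6R and low-difference arrays. Cd8a read 14.2 and 6.47% in anti-IL6R grafts, 9.61 and 0.692% in prednisolone grafts, 0.596 and 0.542% in high-difference grafts and 5.64 and 6.14% in low-difference grafts. It was well above background on the anti-IL6R and low-difference arrays and the first prednisolone array, and on neither high-difference array. Cd8a was at least 2.53-fold lower in high-difference than in low-difference grafts (adjusted p = 0.33) and at least 4.12-fold higher in anti-IL6R than in high-difference grafts (adjusted p = 0.22). Cd8b, its partner chain, read 14.1 and 7.49% on the anti-IL6R arrays, 3.02 and 3.05% on the high-difference arrays and 5.61 and 6.69% on the low-difference arrays, with no overlap between high-difference arrays and either of these groups. On the prednisolone arrays Cd8b was at 8.71 and 2.75%, the second not well above background. The coreceptor Cd4, which rat macrophages also carry, was well above background only on the anti-IL6R arrays (2.82 and 2.40%) and the first prednisolone array (2.70%). Cd4 was at least 1.12-fold higher in anti-IL6R than in high-difference grafts (adjusted p = 0.24), and normexp turned the difference to -0.04.

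Among the adhesion and costimulation genes, the adhesion receptor Cd2 read 3.81 and 6.06% in anti-IL6R grafts, 3.03 and 1.60% in prednisolone grafts, 0.705 and 1.02% in high-difference grafts and 2.64 and 2.83% in low-difference grafts. Both high-difference values and the second prednisolone value were not well above background. Cd2 was at least 1.18-fold lower in high-difference than in low-difference grafts (adjusted p = 0.30) and at least 2.07-fold higher in anti-IL6R than in high-difference grafts (adjusted p = 0.15). Cd5 and Cd6 are related receptors that tune antigen receptor signals. Cd6 read 149 and 121% in anti-IL6R grafts, 106 and 76.9% in prednisolone grafts, 79.9 and 49.3% in high-difference grafts and 128 and 195% in low-difference grafts. The high-difference arrays lay below both arrays of the anti-IL6R and low-difference groups. Cd6 differed by -1.33 ± 0.34 between high-difference and low-difference grafts (adjusted p = 0.32) and by 1.1 ± 0.34 between anti-IL6R and high-difference grafts (adjusted p = 0.24). A dimmer probe of Cd6 differed the same way, by -2.47 ± 0.56 and 2.42 ± 0.56. Cd5 was dim on both high-difference arrays, at least 1.01-fold lower there than in low-difference grafts (adjusted p = 0.33) and at least 1.31-fold lower than in anti-IL6R grafts (adjusted p = 0.21). Normexp turned the Cd5 differences to 0.01 and -0.19.

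Cd7, an immunoglobulin-type receptor of T and NK cells, read 14.0 and 9.20% in anti-IL6R grafts, 11.2 and 3.82% in prednisolone grafts, 4.93 and 0.626% in high-difference grafts and 16.1 and 17.3% in low-difference grafts. The second high-difference array was not well above background, and the difference of -3.25 ± 0.97 between high-difference and low-difference grafts (adjusted p = 0.33) was -1.76 without it. Between anti-IL6R and high-difference grafts Cd7 differed by 2.69 ± 0.97 (adjusted p = 0.27), or by 1.20 without that array and 4.18 without the first high-difference array. Its second probe differed by -1.47 ± 0.49 and 1.31 ± 0.49 in the 2 comparisons, but was not well above background on either high-difference array (1.48 and 0.757%). Several further members are receptors that T cells display on activation. The inhibitory receptor Ctla4 overlapped between groups, at 7.14 and 11.8% in anti-IL6R grafts, 5.43 and 8.85% in prednisolone grafts, 7.29 and 5.19% in high-difference grafts and 8.09 and 5.56% in low-difference grafts. The costimulator Icos was at 3.34 and 4.05% in high-difference grafts, against 6 and 5.18% in low-difference grafts. Icos differed there by -0.60 ± 0.30 (adjusted p = 0.39), and its second, dimmer probe by -0.53 ± 0.29. The 2 probes had opposite signs between prednisolone and high-difference grafts (0.57 and -0.04) and between anti-IL6R and prednisolone grafts (-0.23 and 0.32). The early activation marker Cd69 read 6.65 and 6.14% in anti-IL6R grafts, 12.7 and 0.594% in prednisolone grafts, 3.77 and 4.74% in high-difference grafts and 3.87 and 5.08% in low-difference grafts. The 0.594% came from a spot with a mean pixel intensity of 50.3 against a local background of 42.5, not well above background.

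Cd48, which most leukocytes carry and which binds Cd2 in rats, read 157 and 152% in anti-IL6R grafts, 214 and 129% in prednisolone grafts, 122 and 94.6% in high-difference grafts and 131 and 147% in low-difference grafts. Thy1, which rat thymocytes and also non-lymphoid cells carry, ranged from 1.73 to 5.21% over the 8 arrays. Only its lowest value, on the second high-difference array, was not well above background. The costimulatory receptor Cd28 stayed between 0.292 and 0.731% and below the call on every array. Cd40lg, the ligand that helps B cells, was well above background on the first anti-IL6R array alone, at 6.70% against 0.304 to 0.587% on the other 7 arrays. Cd96, an adhesion receptor, passed the call on the second low-difference array alone, at 1.81%. Such single-array signals have no support from the replicate.

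Of the kinases and adaptors behind the receptor, Zap70, the kinase that binds the phosphorylated CD3 and zeta chains, read 51.9 and 37.5% in anti-IL6R grafts, 43.8 and 18.8% in prednisolone grafts, 11.5 and 12.7% in high-difference grafts and 37.7 and 36.5% in low-difference grafts. Both high-difference arrays were below all other arrays, and the second prednisolone array was next. Zap70 differed by -1.62 ± 0.40 between high-difference and low-difference grafts (adjusted p = 0.32) and by 1.87 ± 0.40 between anti-IL6R and high-difference grafts (adjusted p = 0.20). Lat, the membrane adaptor that Zap70 phosphorylates, read 19.4 and 16.1% in anti-IL6R grafts, 15.7 and 6.98% in prednisolone grafts, 8.30 and 7.19% in high-difference grafts and 21.3 and 20% in low-difference grafts. The second prednisolone array lay below both high-difference arrays. Lat differed by -1.42 ± 0.38 between high-difference and low-difference grafts (adjusted p = 0.33) and by 1.19 ± 0.38 between anti-IL6R and high-difference grafts (adjusted p = 0.25). Lck, the kinase that starts the cascade, was at 8.06 and 7.45% in anti-IL6R grafts, 9.85 and 2.75% in prednisolone grafts, 2.43 and 3.77% in high-difference grafts and 4.36 and 6.92% in low-difference grafts. Its first high-difference value and its second prednisolone value were not well above background.

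The inhibitory adaptor Sit1 had another order, at 13.2 and 9.92% in anti-IL6R grafts, 6.75 and 17.0% in prednisolone grafts, 8.04 and 6.67% in high-difference grafts and 27.8 and 14.9% in low-difference grafts. Here the second prednisolone array was above the first. Sit1 differed by -1.47 ± 0.50 between high-difference and low-difference grafts (adjusted p = 0.33). Fyb, an adaptor that links the receptor to integrins, had a lower mean in anti-IL6R than in high-difference grafts, with 1.47 and 1.96% in anti-IL6R grafts, against 2.48 and 2.74% in high-difference grafts, where it was not well above background. Its difference of -0.62 ± 0.23 (adjusted p = 0.28) therefore compares dim values, and no fold is given. The adaptor Trat1 was dim throughout, and the kinase Txk passed the call on the second prednisolone array alone (4.98%).

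Bcl11b, a transcription factor of T cell commitment, was the 1 tested member with a higher mean in high-difference than in low-difference grafts. It read 3.30 and 6.19% in anti-IL6R grafts, 12.4 and 4.26% in prednisolone grafts, 4.72 and 27.1% in high-difference grafts and 2.22 and 3.76% in low-difference grafts. A single array, the second high-difference one, carried the difference of 1.97 ± 0.91 (adjusted p = 0.38), and its spot had a local background of 77, against 49 on the first high-difference array. Without that array the difference was 0.71. A second Bcl11b probe was not well above background on any array.

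**Figure D2:**
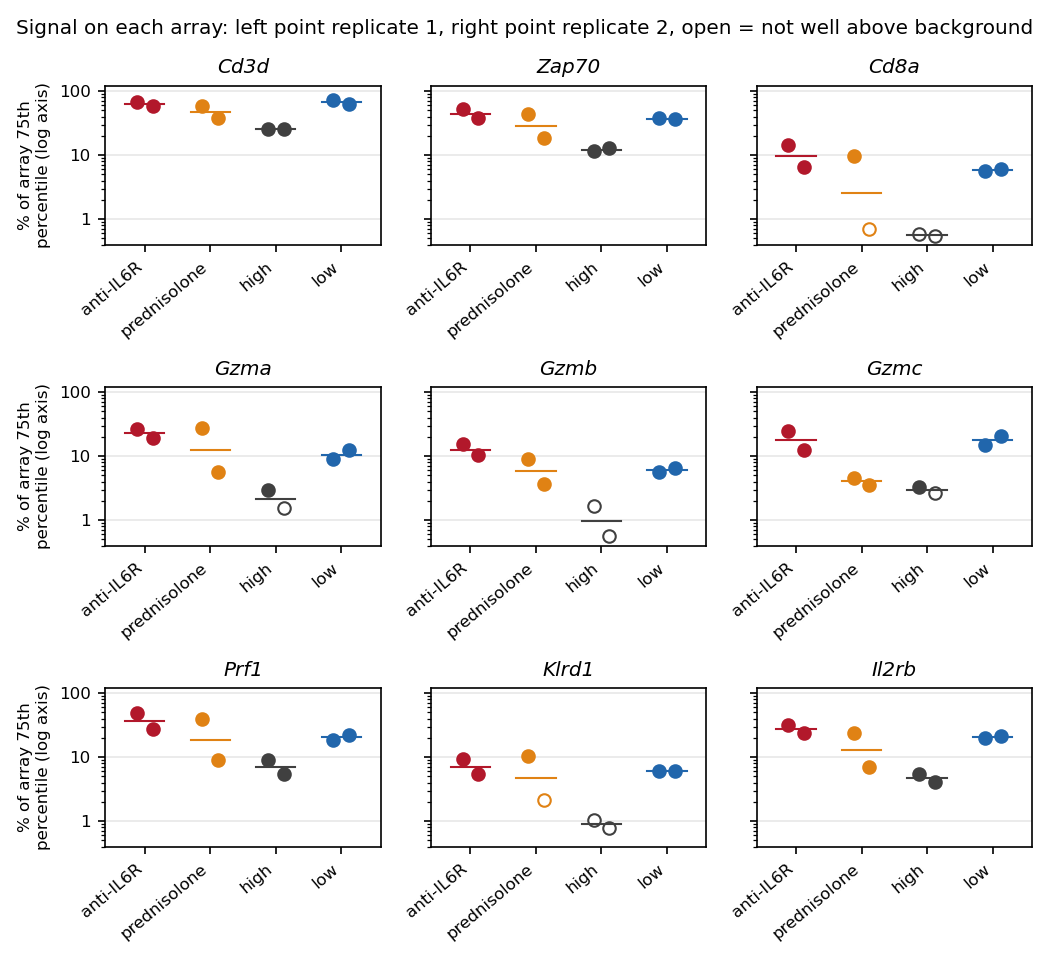
Level on each array, as a percentage of the array's 75th percentile on a log axis, for 9 members in the 4 groups, with a line at each group's mean of log2 levels and open points where the probe was not well above background. Cd3d, for example, sat at 25.5 and 25.6% on the high-difference arrays, below all other arrays, while Gzmc was low on the prednisolone arrays too (4.58 and 3.55%).

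Among the tested members, the cytotoxic genes had a median log2 difference of -2.03 and the T cell genes of -1.33 between high-difference and low-difference grafts and of 2.37 and 1.31 between anti-IL6R and high-difference grafts. For the members bright on every array, the medians of the 3 cytotoxic and 9 T cell genes were -1.53 and -1.33 in the first comparison and 2.01 and 0.64 in the second. All 11 tested cytotoxic genes were below 0 in the first and above 0 in the second comparison. Gzma and Gzmk, granzymes that cleave after basic residues, were both brightest on the first prednisolone array. Gzma read 26.6 and 19.3% in anti-IL6R grafts, 27.7 and 5.63% in prednisolone grafts, 2.95 and 1.56% in high-difference grafts and 9.01 and 12.3% in low-difference grafts. The high-difference arrays were the dimmest, the second of them not well above background. Gzma differed by -2.30 ± 0.73 between high-difference and low-difference grafts (adjusted p = 0.33) and by 3.40 ± 0.73 between anti-IL6R and high-difference grafts (adjusted p = 0.20). Gzmk read 15.2 and 9.47% in anti-IL6R grafts, 18.5 and 4.89% in prednisolone grafts, 3.01 and 2.52% in high-difference grafts and 7.23 and 8.23% in low-difference grafts. Its second high-difference value was not well above background. Between anti-IL6R and high-difference grafts Gzmk differed by 2.12 ± 0.60 (adjusted p = 0.23).

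Gzmb, the granzyme best known for starting apoptosis in the target, had a main probe and a second one that disagreed. The main probe read 15.3 and 10.4% in anti-IL6R grafts, 9.02 and 3.71% in prednisolone grafts, 1.64 and 0.571% in high-difference grafts and 5.55 and 6.61% in low-difference grafts. Neither high-difference array was well above background, so that Gzmb was at least 2.61-fold lower in high-difference than in low-difference grafts (adjusted p = 0.30) and at least 5.44-fold higher in anti-IL6R than in high-difference grafts (adjusted p = 0.16). The second probe, which the files also name Gzmb but describe as a granzyme-like protein, may measure another granzyme. It differed by 0.17 ± 0.60 and 0.73 ± 0.60 in these comparisons, with 1.32 and 3.33% on the high-difference arrays and 2.08 and 1.68% on the low-difference arrays. Only 1 of those high-difference values was well above background.

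Gzmc, another granzyme of the same chromosome 15 cluster, had the smallest p of all members in both comparisons. It read 24.7 and 12.7% in anti-IL6R grafts, 4.58 and 3.55% in prednisolone grafts, 3.27 and 2.68% in high-difference grafts and 15.0 and 20.6% in low-difference grafts. The second high-difference value was not well above background. Anti-IL6R and low-difference arrays were above all prednisolone and high-difference arrays, with no overlap. Gzmc differed by -2.57 ± 0.36 between high-difference and low-difference grafts (adjusted p = 0.20), by 2.58 ± 0.36 between anti-IL6R and high-difference grafts (adjusted p = 0.14) and by 2.13 ± 0.36 between anti-IL6R and prednisolone grafts (adjusted p = 0.90). In contrast to Gzma, Gzmk and Gzmb, the first prednisolone array was no brighter for Gzmc than the low-difference arrays. The promoter windows of Gzmb and Gzmc are shown for this difference on the prednisolone arrays, and cover chr15:34462420-34462719 and chr15:34439957-34440256 of GRCr8, both on the minus strand, with capitals as above.
Gzmb: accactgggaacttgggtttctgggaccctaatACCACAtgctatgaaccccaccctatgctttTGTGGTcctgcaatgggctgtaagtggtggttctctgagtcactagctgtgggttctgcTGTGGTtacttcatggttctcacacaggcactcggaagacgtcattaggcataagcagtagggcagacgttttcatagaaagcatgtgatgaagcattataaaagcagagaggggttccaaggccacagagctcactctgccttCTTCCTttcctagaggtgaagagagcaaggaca
Gzmc: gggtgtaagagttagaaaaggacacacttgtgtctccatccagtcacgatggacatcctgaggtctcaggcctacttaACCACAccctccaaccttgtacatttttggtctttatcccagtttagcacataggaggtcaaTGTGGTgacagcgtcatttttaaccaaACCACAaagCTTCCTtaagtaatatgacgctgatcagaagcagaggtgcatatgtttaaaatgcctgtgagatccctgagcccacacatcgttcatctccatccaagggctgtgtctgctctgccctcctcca
Each held 1 AGGAAG match and 3 TGTGGT matches, at different places, which did not overlap.

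Perforin, Prf1, read 48.6 and 27.3% in anti-IL6R grafts, 38.9 and 9.08% in prednisolone grafts, 9.02 and 5.54% in high-difference grafts and 18.5 and 22.4% in low-difference grafts. The first anti-IL6R array was the brightest, the first prednisolone array came next, and the second high-difference array was the dimmest. Nkg7, a granule membrane protein, lay at 47.1 and 31.7% in anti-IL6R grafts, 36.4 and 20.9% in prednisolone grafts, 19.8 and 14.3% in high-difference grafts and 26.3 and 28.5% in low-difference grafts, without overlap between high-difference arrays and any other group. Cst7, the inhibitor cystatin F that controls the proteases that activate granzymes, read 17.4 and 10.8% in anti-IL6R grafts, 22.3 and 6.49% in prednisolone grafts, 2.92 and 3.97% in high-difference grafts and 10.5 and 9.61% in low-difference grafts. Cst7 differed by -1.56 ± 0.57 between high-difference and low-difference grafts (adjusted p = 0.34) and by 2.01 ± 0.57 between anti-IL6R and high-difference grafts (adjusted p = 0.23).

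Of the NK receptors, Klrd1 (CD94) read 9.38 and 5.42% in anti-IL6R grafts, 10.3 and 2.14% in prednisolone grafts, 1.03 and 0.770% in high-difference grafts and 6.05 and 6.08% in low-difference grafts. The high-difference arrays and the second prednisolone array were not well above background. Klrd1 was at least 2.61-fold lower in high-difference than in low-difference grafts (adjusted p = 0.32) and at least 3.07-fold higher in anti-IL6R than in high-difference grafts (adjusted p = 0.21). Klrk1 (NKG2D), an activating receptor, was dim on the same 3 arrays, at least 1.40-fold lower in high-difference than in low-difference grafts (adjusted p = 0.33) and at least 1.82-fold higher in anti-IL6R than in high-difference grafts (adjusted p = 0.20). Ncr1 (NKp46), the receptor closest to an NK cell marker, passed the call on the first anti-IL6R array alone, at 1.88%, and lay at 0.504 and 0.520% on the high-difference arrays. The transcription factor Tbx21 (T-bet) was above background only on the anti-IL6R and low-difference arrays, from 1.75 to 2.80%, and no fold could be bounded for it, with normexp turning its difference between high-difference and low-difference grafts to 0.03. Eomes, its relative, was dim on all 8 arrays.

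Faslg and Ifng, the effector genes, each had 10 spots of the same probe per array, which gives the only view of technical spread. Faslg, the death ligand, was well above background on 10 of 10 spots on the first anti-IL6R array, 9 of 9 unflagged spots on the second, 10 and 1 of 10 on the prednisolone arrays, 0 and 0 on the high-difference arrays and 10 and 10 on the low-difference arrays. Its median spot was at 7.10 and 5.54% on the anti-IL6R arrays, 6.20 and 2.03% on the prednisolone arrays, 1.60 and 1.51% on the high-difference arrays and 5.24 and 6.49% on the low-difference arrays. The low value of the second prednisolone array thus came from 10 spots and not from a single one. Faslg was at least 2.49-fold lower in high-difference than in low-difference grafts (adjusted p = 0.32) and at least 2.74-fold higher in anti-IL6R than in high-difference grafts (adjusted p = 0.21). Ifng, interferon gamma, did not meet the filter for testing. Its spots passed the call 5 times of 10 and 8 of 8 on the anti-IL6R arrays, 6 and 0 times of 10 on the prednisolone arrays, 0 and 0 on the high-difference arrays and 7 and 2 on the low-difference arrays.

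**Figure D3:**
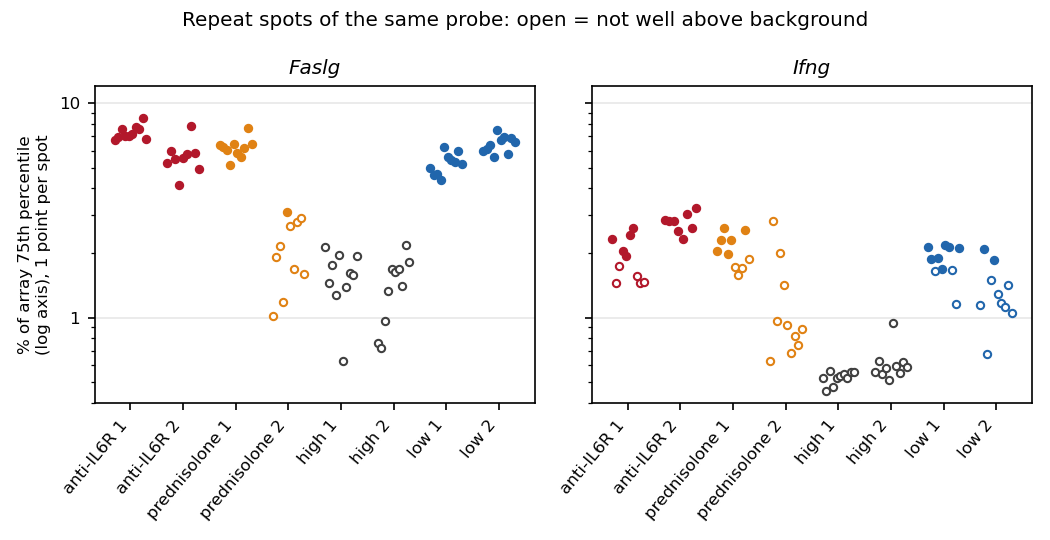
Every unflagged spot of the Faslg and Ifng probes on each array, as a percentage of the array's 75th percentile on a log axis, filled where the spot was well above background. Spots of an array are technical repeats of 1 RNA sample, and none of the 20 spots per gene on the 2 high-difference arrays was filled.

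Of the cytokine receptors, only Il2rb, the chain that IL-2 and IL-15 share, could be tested. It read 31.6 and 23.7% in anti-IL6R grafts, 24.0 and 7.04% in prednisolone grafts, 5.45 and 4.16% in high-difference grafts and 19.7 and 21.3% in low-difference grafts. All 8 arrays were well above background, and the high-difference arrays were below every other array, with the second prednisolone array next. Il2rb differed by -2.10 ± 0.54 between high-difference and low-difference grafts (adjusted p = 0.33) and by 2.52 ± 0.54 between anti-IL6R and high-difference grafts (adjusted p = 0.20). Il2rg, the common gamma chain that several interleukin receptors need, had 1 probe whose spot the software flagged as non-uniform on 7 of 8 arrays. Its flagged and unflagged readings spread from 15.5 to 272% and were not used. Il2ra, which completes the high-affinity IL-2 receptor, passed the call only with its dimmer probe on the second low-difference array, at 1.61%, and the IL-7 receptor Il7r on no array.

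Set together, high-difference grafts had a lower mean than low-difference grafts for 32 of 33 tested members, with a median log2 difference of -1.49, against 0.04 over all genes tested. The median of the 13 bright on every array was -1.42, with 12 of 13 below 0. With dim members at the bound of their difference, and 3 left out for lack of a bound, the median over the tested members was -1.34. No gene passed an adjusted p of 0.05 in this comparison (0% of all genes tested, limma), while 20 members were lower at an unadjusted p under 0.05, against 7.29% of all genes, and 0 were higher, against 6.74%. Both high-difference arrays lay below both low-difference arrays for 28 members, against 25.1% of all genes, and above them for Bcl11b alone, against 30.7%. These groups shared a slide.

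Anti-IL6R grafts against high-difference grafts gave a median of 1.96 over the 33 members (all genes -0.05) and 1.19 over the 13. With dim members at their bound, and 2 left out for lack of a bound, the median over the tested members was 1.31. The 2 groups lay on different slides. Here 31 of 33 members were above 0, all but Fyb and Bcl11b. No gene passed (0% of all genes), and at an unadjusted p under 0.05 there were 22 members higher, against 7.93% of all genes, and 1 lower, against 8.69%. The arrays did not overlap for 30 members that were higher, against 25.6% of all genes, and for 1 that was lower, against 33.5%. This comparison shares its high-difference arrays with the previous one, so the opposite signs of the same genes are not separate observations. Leaving out either prednisolone array from the shared fit left these differences as they were and changed only the estimate of spread. Such a fit holds 1 prednisolone array, so no count of members passing is taken from it. Over all alternatives the adjusted p of the members named for this comparison ranged from 0.031 to 0.91.

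**Figure D4:**
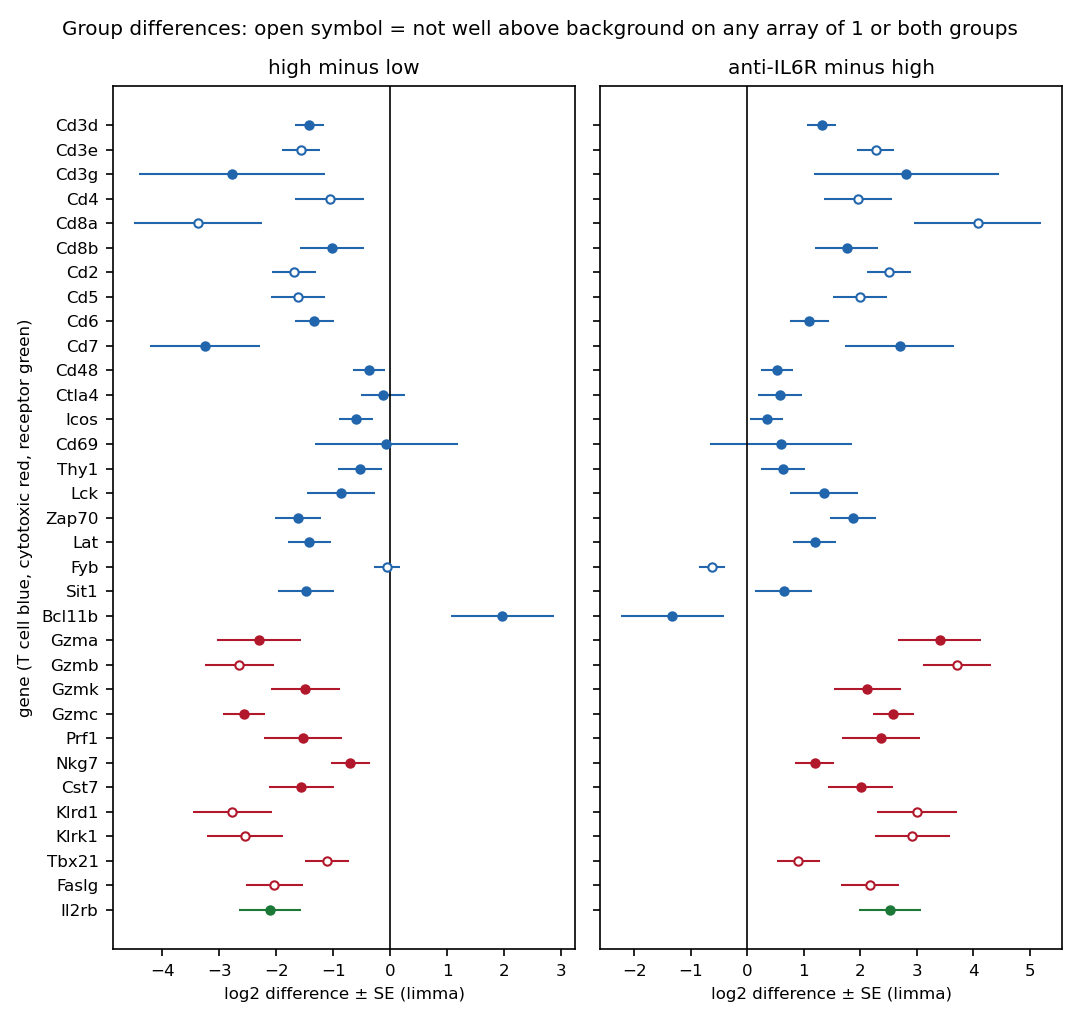
Log2 differences with SE for the 33 tested members, high-difference minus low-difference grafts on the left and anti-IL6R minus high-difference grafts on the right, open where a group was not well above background on either array. On the left 32 of 33 members lie below 0, and on the right 31 of 33 lie above 0, with none past an adjusted p of 0.05.

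Prednisolone grafts against high-difference grafts rested on 2 unlike arrays, and these groups lay on different slides. The median over the 33 members was 0.89 (all genes -0.06), with 29 above 0, and 0.63 over the 13. It was 1.70 without the second prednisolone array and 0.48 without the first. No gene passed (0% of all genes), and 13 members were higher at an unadjusted p under 0.05, against 4.49% of all genes. The arrays did not overlap for 20 members, all higher, against 14.9% of all genes. Gzmb was at least 2.49-fold higher in prednisolone grafts (adjusted p = 0.32) and Klrd1 at least 2.02-fold (adjusted p = 0.36). On the measured values, Gzmb differed by 3.22 without the second prednisolone array and by 1.94 without the first, and Klrd1 by 3.53 and 1.27. Gzma differed by 2.54 ± 0.73 (adjusted p = 0.36), Cd3d by 0.89 ± 0.26 (adjusted p = 0.36), Zap70 by 1.25 ± 0.40 (adjusted p = 0.38) and Il2rb by 1.45 ± 0.54 (adjusted p = 0.41). Without the second prednisolone array these were 3.69 for Gzma, 1.21 for Cd3d, 1.86 for Zap70 and 2.33 for Il2rb, and without the first 1.39 for Gzma, 0.56 for Cd3d, 0.64 for Zap70 and 0.56 for Il2rb. Cd2 was too dim in high-difference grafts for a bound, Cd3e was dim in both groups, and normexp turned the Cd3e difference to -0.09.

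The median member differed by 1.51 between the 2 prednisolone arrays, first minus second, where the median of all genes was -0.01. More than 1 log2 unit higher on the first were 20 of 33 members, against 9% of all genes tested. The first array was above both high-difference arrays for 29 members and the second for 23, against 29.4 and 36.4% of all genes. Exceptions that were brighter on the second array were Ctla4, Icos, Thy1, Fyb and Sit1. The second Icos probe was not, at 2.08 and 2.07%, the latter not well above background. Within the other groups the median absolute difference between the 2 arrays over members was 0.46 for anti-IL6R, 0.37 for high-difference and 0.25 for low-difference grafts.

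**Figure D5:**
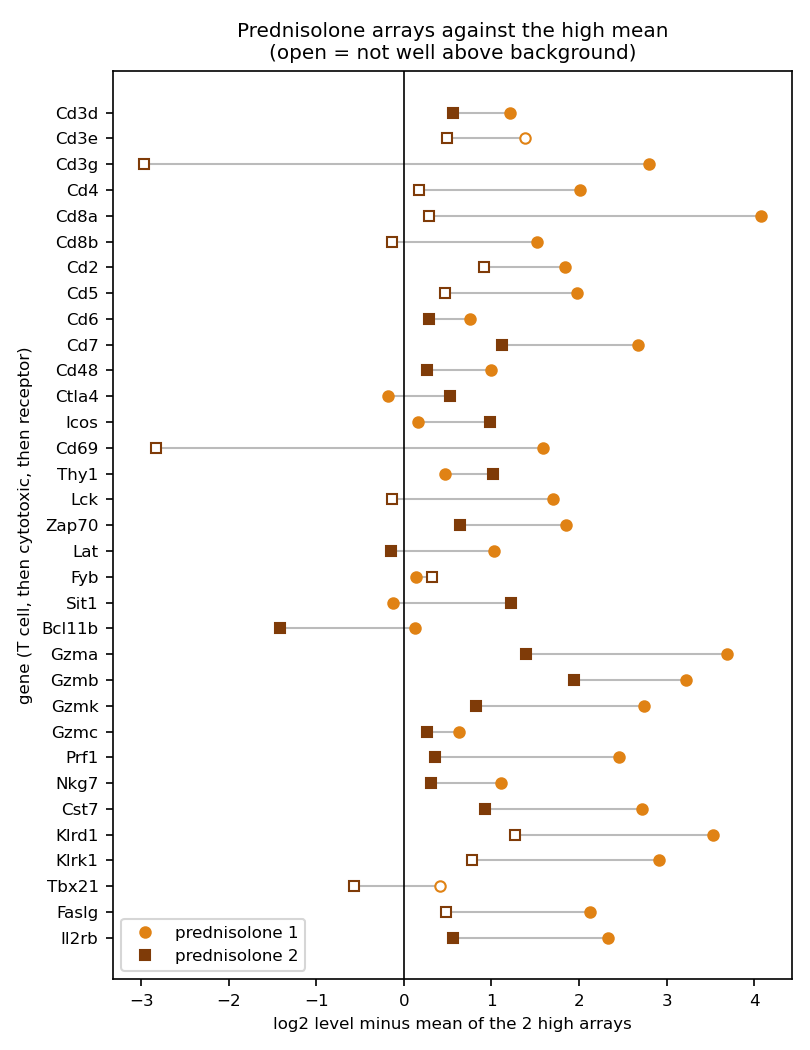
Log2 level of each tested member on the 2 prednisolone arrays relative to the mean of the 2 high-difference arrays, circles for the first and squares for the second array, open where not well above background. The first array lies right of the second for 28 of 33 members, and the median gap is 1.51.

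Anti-IL6R grafts against prednisolone grafts, which shared a slide, gave a median of 0.77 over the 33 members (all genes 0.01) and 0.43 over the 13. Without the second prednisolone array it was 0.02 and without the first 1.52, so the size of this contrast depended on which prednisolone graft was used. No gene passed (0% of all genes), with 4 members higher at an unadjusted p under 0.05, against 2.8% of all genes, and 1 lower, against 0.679%. Non-overlapping arrays were seen for 7 members that were higher, against 13.2% of all genes, and for 1 that was lower, against 12.1%. Gzmc was the member with the smallest p, as given above. Cd3e was at least 1.17-fold higher in anti-IL6R grafts (adjusted p = 0.999), although normexp turned the difference to -0.03. Cd2 differed by 1.13 ± 0.39, Lat by 0.75 ± 0.38, Gzmb by 1.13 ± 0.60, Il2rb by 1.08 ± 0.54 and Fyb by -0.85 ± 0.23 (each adjusted p = 0.999). Without the second prednisolone array these were 0.67 for Cd2, 0.17 for Lat, 0.49 for Gzmb, 0.19 for Il2rb and -0.76 for Fyb. Without the first they were 1.59 for Cd2, 1.34 for Lat, 1.77 for Gzmb, 1.96 for Il2rb and -0.94 for Fyb. Gzmc differed by 1.95 without the second and by 2.32 without the first, and Cd3e, on measured values, by 0.89 and 1.78.

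Anti-IL6R grafts against low-difference grafts, a comparison added after the data were seen, gave a median of 0.38 (all genes -0.03), and 0.25 over the 13 members. Of all genes 3 passed (0.0123%), none of them a member. At an unadjusted p under 0.05 there was 1 member, Fyb, lower in anti-IL6R grafts, against 1.38% of all genes, and 0 members were higher, against 1.72%. The arrays did not overlap for 17 members that were higher, against 15.8% of all genes, and 5 that were lower, against 23.3%. Among the tested cytotoxic genes 10 of 11 were above 0, with a median of 0.45, and among the tested T cell genes 14 of 21, with a median of 0.25. Of the members bright on every array, the 3 cytotoxic genes had a median of 0.50 and the 9 T cell genes of -0.10. These groups lay on different slides. Prednisolone grafts against low-difference grafts, also added after the data were seen, gave a median of -0.37 over the 33 members and -0.12 over the 13, with 23 of 33 below 0 and no gene past the threshold (0% of all genes). At an unadjusted p under 0.05 there were 3 members lower, Gzmc, Lat and Tbx21, against 4.02% of all genes, and 0 higher, against 2.16%. The arrays did not overlap for 7 members that were lower, against 18.5% of all genes, and for Bcl11b, which was higher, against 13.5%. Without the second prednisolone array the medians were 0.24 and 0.23, and without the first -0.996 and -0.63, so the direction depended on the array.

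Genes of the same pathways that are not members were read from lists chosen with earlier results known. They met the same filter, so a gene dim in 1 group passed through a group where it was bright. Counts and medians over these lists and the marker lists below therefore describe the data and are no evidence of a difference. Of 21 genes of antigen receptor signalling and T cell surface, 9 were tested and none passed. All 9 were below 0 in high-difference against low-difference grafts, against 46.5% of all genes tested, with a median of -2.03. Among those with the smallest p were Sh2d1a, an adaptor of SLAM receptors, at least 1.43-fold lower, Ptpn22, a phosphatase, at least 2.15-fold lower, and Skap1, an adaptor, at -2.03 ± 0.66. Of 20 further cytotoxic and NK genes 11 were tested, with a median of -1.57 and 10 below 0. Among them were the chemokine Xcl1 at -2.96 ± 0.82, the granzyme B inhibitor Serpinb9 at -1.26 ± 0.31 and the IgG receptor Fcgr3a, which macrophages also carry, at -2.44 ± 0.75. Ctsw, a protease of cytotoxic cells, was at least 1.64-fold lower.

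The other lists showed less of one direction. Of 16 transcription factors and homing receptors 8 were tested, 6 of them below 0, with a median of -0.59. The chemokine receptor Cxcr3 was at -1.04 ± 0.58. Ccr7, a lymph node homing receptor, was too dim for a bound. Of 15 cytokines and checkpoint receptors 4 were tested, with a median of 0.37, and Tnfrsf18 (GITR) was at least 1.93-fold lower while Havcr2, Tnfrsf4 and Tnfrsf9 were above 0. Of 12 common gamma chain pathway genes 9 were tested, with a median of -0.36 and 7 below 0, led by the receptor Il21r at -1.98 ± 0.62.

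Markers of several other cell types were also lower in high-difference grafts. The summed level of the 33 members was 841 and 680% on the anti-IL6R arrays, 782 and 398% on the prednisolone arrays, 351 and 299% on the high-difference arrays and 657 and 735% on the low-difference arrays. Cd6 and Cd48, the brightest members, weighed most in this sum, for example with 79.9 and 122% on the first high-difference array. The summed level of 14 of 16 monocyte, macrophage and dendritic cell markers was 9485 and 6460% on the anti-IL6R arrays, 12362 and 3026% on the prednisolone arrays, 2347 and 1579% on the high-difference arrays and 4783 and 7278% on the low-difference arrays. The second prednisolone array was again far below the first. The median log2 difference of those 14 was -1.50 between high-difference and low-difference grafts, with 13 below 0, against 46.5% of all genes tested. Between anti-IL6R and high-difference grafts it was 2.08, with all 14 above 0, against 46.1% of all genes. For 5 of 6 pan-leukocyte markers the medians were -1.27 and 1.36, for 6 endothelial markers -0.81 and 1.24, and for the 8 kidney epithelium and podocyte markers -0.93 and 0.83. The 5 pan-leukocyte markers summed to 3503 and 2392% on the anti-IL6R arrays, 3649 and 1218% on the prednisolone arrays, 1335 and 834% on the high-difference arrays and 2368 and 3118% on the low-difference arrays. The kidney epithelium and podocyte markers summed to 85573 and 65545% on the anti-IL6R arrays, 39099 and 89904% on the prednisolone arrays, 66933 and 39265% on the high-difference arrays and 115096 and 79150% on the low-difference arrays. Unlike the leukocyte lists, they were higher on the second than on the first prednisolone array. Those of the endothelium summed to 7089 and 6150%, to 6800 and 5970%, to 4759 and 3454% and to 6028 and 6845% on the anti-IL6R, prednisolone, high-difference and low-difference arrays. For 6 of 8 red blood cell and platelet markers the medians were -0.63 and 0.06. Of 10 B and plasma cell markers 2 were tested, summing to 2.20 to 9.60%, with medians of -1.21 and 1.01. Neutrophil markers had another order. Of 8, 3 were tested, with medians of 0.30 and 1.40 and sums of 66.7 and 36.0% on the anti-IL6R arrays, 212 and 15.5% on the prednisolone arrays, 44.0 and 22.3% on the high-difference arrays and 15.2 and 20.5% on the low-difference arrays. The part of these cells, and of the lower share of spots above background on the high-difference arrays and the second prednisolone array, in the member differences was not tested.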

How the data were processed

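Each of the 8 samples was hybridised to its own 1-colour Agilent array, and the intensity values used are the background-subtracted processed signals that Feature Extraction 9.5.1.1 wrote, per the file headers. The authors' deposited value table, also intensities, served as an alternative. From the intensities, log2 signals were averaged over unflagged spots of a probe and the array's 75th percentile of log2 signal was subtracted. Of 41012 gene probes, 765 flagged on some array and 11562 not well above background on both arrays of any group were left out. The brightest of the remaining 28685 probes stood for each of 24446 genes. All 8 arrays entered 1 limma fit (limma 3.58.1, R 4.3.3; 4 residual degrees of freedom), with p-values adjusted over all genes by the Benjamini-Hochberg method. Fold bounds set a dim value at the lowest signal well above background on its array, or at its own value where that was higher. Differences with errors are given for the 12 T cell genes, 8 cytotoxic genes and 1 receptor with the smallest p in the comparisons of high-difference grafts with low-difference and anti-IL6R grafts, and for 4, 3 and 1 in the other 2, and for up to 4 genes of each further list, some of which are not reported here. Genes outside that rule are given by their levels. The members, lists, motifs and tests were chosen with earlier results of these data known. The fit was tested on simulated data. Promoter sequences are RefSeq's (GRCr8). The build behind the arrays' probe positions is not stated in the labels or headers. Alternatives were another background correction, normalization, filter, probe rule and prior, the deposited table, a replicate block, single slides and leaving out each array.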

Additional observations from a re-analysis of the deposited data

How the results depend on the processing

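With 2 arrays per group, results can rest on single arrays, and dim probes hold little more than a bound. The share of all genes at an unadjusted p under 0.05 is not given for these settings. Counts of members at that cut below therefore do not show anything particular to the members. In none of the settings other than normexp did a named member change sign, and each value below is a log2 difference, a median of them over the tested members or a count, and the cause was not tested unless the setting itself uses fewer genes or arrays. Normexp added an offset of 50 to every intensity, which by itself shrinks log2 differences of dim signals. The offset's part in the changes under normexp was not tested. Under normexp background correction the medians were -0.40 for high-difference minus low-difference, 0.57 for anti-IL6R minus high-difference and 0.029 for anti-IL6R minus low-difference grafts. Members at an unadjusted p under 0.05 then numbered 10 for high-difference against low-difference, 8 for prednisolone against high-difference, 1 for anti-IL6R against prednisolone and 0 for anti-IL6R against low-difference grafts, where 0 genes passed the adjusted threshold. Dim members that turned under normexp were Cd3e (0.026), Cd5 (0.013) and Tbx21 (0.032) for high-difference minus low-difference, Cd3e (-0.12), Cd4 (-0.043) and Cd5 (-0.19) for anti-IL6R minus high-difference, and Cd3e for prednisolone minus high-difference (-0.086) and for anti-IL6R minus prednisolone (-0.030). Quantile normalization gave 3, 7, 4 and 2 genes past the threshold for high-difference against low-difference, anti-IL6R against high-difference, prednisolone against high-difference and anti-IL6R against prednisolone grafts, and a first median of -1.42. Array medians gave 1 gene in each of the first 2. Without a filter on dim probes the medians were -1.29, 1.39 and, against low-difference grafts, 0.20 for anti-IL6R, with 2 members at an unadjusted p under 0.05 and 0 genes past the threshold. With probes well above background on all 8 arrays the medians were -1.42 and 1.19, members at an unadjusted p under 0.05 numbered 7, 8, 4, 0 and 0 in the 5 comparisons, and 0 genes passed for anti-IL6R against low-difference grafts. A trended, robust prior gave 0 and 0 there. On the treated slide alone 3 members had an unadjusted p under 0.05 for anti-IL6R against prednisolone. With dim members at their bound, chosen after seeing the data, the first 2 medians were -1.34 and 1.31, with 3 and 2 members left out.

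Same-numbered arrays correlated between -0.35 and 0.37 in their deviations from the group means. With so few arrays per group, these correlations cannot decide whether the numbers pair the grafts. The labels do not say whether same-numbered rats were operated on together. With the replicate number as a block, 22, 23, 16, 4 and 1 members had an unadjusted p under 0.05 in the 5 comparisons, 0 genes passed for anti-IL6R against low-difference grafts, and it changed no other call.

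Leaving out 1 array at a time, genes past the threshold ranged from 0 to 42 for high-difference against low-difference, 0 to 191 for anti-IL6R against high-difference, 0 to 220 for prednisolone against high-difference, 0 to 132 for anti-IL6R against prednisolone and 0 to 8 for anti-IL6R against low-difference grafts. Without the first high-difference array the counts were 42, 57 and 36 in the first 3 comparisons. Without the first prednisolone array they were 29, 191, 220, 132 and 8 in the 5 comparisons, and without the second 29, 191, 20, 5 and 8, a group left with 1 array being assumed to vary like the others. The medians ranged from -1.54 to -1.36, 1.66 to 2.10, 0.48 to 1.70, 0.023 to 1.52 and 0.14 to 0.48 in that order of comparisons, and members at an unadjusted p under 0.05 from 14 to 27, 12 to 28, 4 to 23, 3 to 26 and 0 to 5. The 12 came without the first anti-IL6R array and the 4 without the second high-difference array, while the 23 came without the second and the 26 without the first prednisolone array. Without either anti-IL6R array anti-IL6R against prednisolone had 3. For anti-IL6R against low-difference grafts, 0 genes passed without any single high-difference, low-difference or anti-IL6R array. The extremes of 0.48 and 1.52 came without the first prednisolone array, and those of 1.70 and 0.023 without the second.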
